A study of Mus musculus with 21 samples.

Results

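In cultured mouse fibro-adipogenic progenitors, 395 autosomal regions lay in a histone H3 lysine 9 dimethylation (H3K9me2) domain in at least 2 of 3 WT libraries and in none of 3 Prdm16 libraries. They were found by dividing the 19 autosomes into bins of 1 kb, keeping each bin that met this rule, and joining bins that touched. The rule kept 60177 bins, or 60.2 Mb, of the 1075878 autosomal bins that lay in a domain of any of the 6 libraries. The same bins made up 2.46% of the autosomal length. The regions were thus chosen by their measured H3K9me2 domain calls, and their H3K9me2 cover is given below as a description, with no test.

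These progenitors (FAPs) live between the fibres of skeletal muscle and can give rise to fat cells and fibroblasts. The series held 21 samples, of which 6 H3K9me2, 2 LaminB1 and 5 RNA libraries were used here. Cells were taken from adult mice 5 days after a muscle injury by cardiotoxin, which followed a 5 day course of tamoxifen and 7 days of rest, and were kept in culture for 4 to 5 days. The group called WT carried 2 floxed Prdm16 alleles and no Cre (Prdm16Flox/Flox::Pdgfrα+/+), so the controls shared the floxed alleles, and the group called Prdm16 also carried a tamoxifen-inducible Cre at Pdgfra (Prdm16Flox/Flox::PdgfrαCre-ERT/+). That Cre acts in cells that express Pdgfra, and the labels do not say that replicates came from separate animals, so any spread given here is that between these samples and may be technical.

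H3K9me2 is a repressive histone mark written mainly by the methyltransferases G9a (Ehmt2) and GLP (Ehmt1). It often forms broad domains over gene-poor chromatin, much of which touches the nuclear lamina, the protein mesh under the nuclear envelope that contains LaminB1. Prdm16 is a zinc finger protein of the PRDM family, known for its part in brown fat identity and in the silencing of genes.

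The sequences below show how unlike the gene starts within the regions were. They are RefSeq promoters on GRCm38.p6, running from 250 bases before to 50 bases after the start on the strand of the gene, with each CG dinucleotide in capitals. Slitrk5 (chr14:111675777-111676076, plus strand) and Slitrk6 (chr14:110755100-110755399, minus strand) encode neuronal adhesion proteins and lay in one region. Gabra2 (chr5:71095800-71096099, minus strand) encodes a GABA receptor subunit. Marchf1 (chr8:65617790-65618089, plus strand), a membrane ubiquitin ligase, and Tma16 (chr8:66486481-66486780, minus strand), a factor of ribosome assembly, again shared a region.
Slitrk5: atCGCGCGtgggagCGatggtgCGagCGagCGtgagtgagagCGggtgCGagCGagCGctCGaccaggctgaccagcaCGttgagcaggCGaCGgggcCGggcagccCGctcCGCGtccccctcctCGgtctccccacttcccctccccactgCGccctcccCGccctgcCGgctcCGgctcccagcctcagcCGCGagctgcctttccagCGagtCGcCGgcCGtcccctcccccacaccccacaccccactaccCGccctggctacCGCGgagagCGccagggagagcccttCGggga
Slitrk6: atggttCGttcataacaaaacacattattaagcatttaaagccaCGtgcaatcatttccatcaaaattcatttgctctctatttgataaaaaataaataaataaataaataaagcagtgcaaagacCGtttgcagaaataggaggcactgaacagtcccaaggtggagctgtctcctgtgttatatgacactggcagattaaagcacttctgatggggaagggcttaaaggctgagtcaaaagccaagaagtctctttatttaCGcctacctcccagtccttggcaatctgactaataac
Gabra2: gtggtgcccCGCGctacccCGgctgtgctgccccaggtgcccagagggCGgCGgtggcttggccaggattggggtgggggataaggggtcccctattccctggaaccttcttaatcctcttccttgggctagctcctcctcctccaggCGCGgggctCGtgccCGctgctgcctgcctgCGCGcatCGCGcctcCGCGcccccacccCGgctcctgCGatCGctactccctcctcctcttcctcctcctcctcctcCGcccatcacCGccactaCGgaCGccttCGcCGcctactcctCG
Marchf1: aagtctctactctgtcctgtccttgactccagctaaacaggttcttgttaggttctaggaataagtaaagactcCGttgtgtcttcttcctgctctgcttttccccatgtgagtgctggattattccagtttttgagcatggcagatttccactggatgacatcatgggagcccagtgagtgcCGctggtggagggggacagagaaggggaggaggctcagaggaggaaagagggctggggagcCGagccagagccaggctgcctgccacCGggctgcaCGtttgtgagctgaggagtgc
Tma16: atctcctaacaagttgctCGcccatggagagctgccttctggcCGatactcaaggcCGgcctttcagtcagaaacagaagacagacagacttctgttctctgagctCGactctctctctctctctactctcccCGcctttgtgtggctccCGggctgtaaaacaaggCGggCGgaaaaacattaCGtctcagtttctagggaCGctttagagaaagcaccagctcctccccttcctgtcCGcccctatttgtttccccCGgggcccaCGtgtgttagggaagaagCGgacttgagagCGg

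The promoter of Slitrk5 held 35 CG dinucleotides and was 74.3% G or C, and that of Gabra2 held 25 and was 70% G or C. The Slitrk6 promoter held 4 and was 38.3% G or C, and that of Marchf1 held 5. Tma16 lay between them with 15. Among autosomal protein-coding promoters in the RefSeq table, 91.9% had no more CG than Slitrk5 and 28.2% no more than Slitrk6, although both genes lay in one region.

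The 3 WT libraries contributed very unequally to the regions. The domains of WT replicate 1 covered 98.9% of their length and those of WT replicate 3 covered 94.2%, while WT replicate 2 covered 13.3%. Bins in replicates 1 and 3 alone made up 52.2 Mb, or 86.7% of the length. Bins in all 3 WT libraries made up 3.846 Mb (6.39%), those in replicates 1 and 2 alone 3.477 Mb (5.78%), and those in replicates 2 and 3 alone 0.66 Mb (1.1%). WT replicate 2 was also the WT library with the least autosomal cover, 562 Mb against 882.9 Mb in replicate 1 and 775.7 Mb in replicate 3. The Prdm16 libraries ranged as widely, at 500.2, 800.4 and 676.9 Mb, so the groups overlapped in their total cover. The part of the unequal cover in the choice of regions was not tested.

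At the edge of the rule, bins in exactly 2 WT libraries and no Prdm16 library summed to 56.3 Mb. Just outside it, 74.2 Mb lay in 1 WT library and no Prdm16 library, and 151.3 Mb lay in 2 or 3 WT libraries and 1 Prdm16 library. More length was thus lost to a single Prdm16 library than the rule kept. The opposite rule, at least 2 Prdm16 libraries and no WT library, gave 363 regions of 44.5 Mb, and 290.9 Mb lay in domains of all 6 libraries.

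Most of the length lay in few long regions. Region length ran from 3 kb, the grid of the deposited H3K9me2 domains, to 1761 kb, with a median of 48 kb and quartiles of 6 and 180 kb. The 149 regions over 100 kb held 54.4 Mb, or 90.5% of the length, and 30 regions over 500 kb held 26.6 Mb. At the other end, 73 regions were a single 3 kb step and 100 were no longer than 6 kb.

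Many regions lay directly beside a Prdm16 domain. On 1 side, 309 regions (30.8 Mb) touched a domain of a Prdm16 library. Another 40 regions (18.3 Mb) touched one on both sides and so filled the gap between them, with a median length of 298.5 kb. The other 46 regions (11.1 Mb, 18.4% of the length) touched no Prdm16 domain, and these lay a median of 459 kb from the nearest one. Of the 389 region ends that met a Prdm16 domain, 163 met one of Prdm16 replicate 1, 187 one of replicate 2 and 89 one of replicate 3. Of the Prdm16-only regions, 277 touched WT domains on 1 side, 33 on both and 53 on neither. By length, 17.4% of them touched on both sides and 31% on neither, against 30.5% and 18.4% of the WT-only regions.

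**Figure D1:**
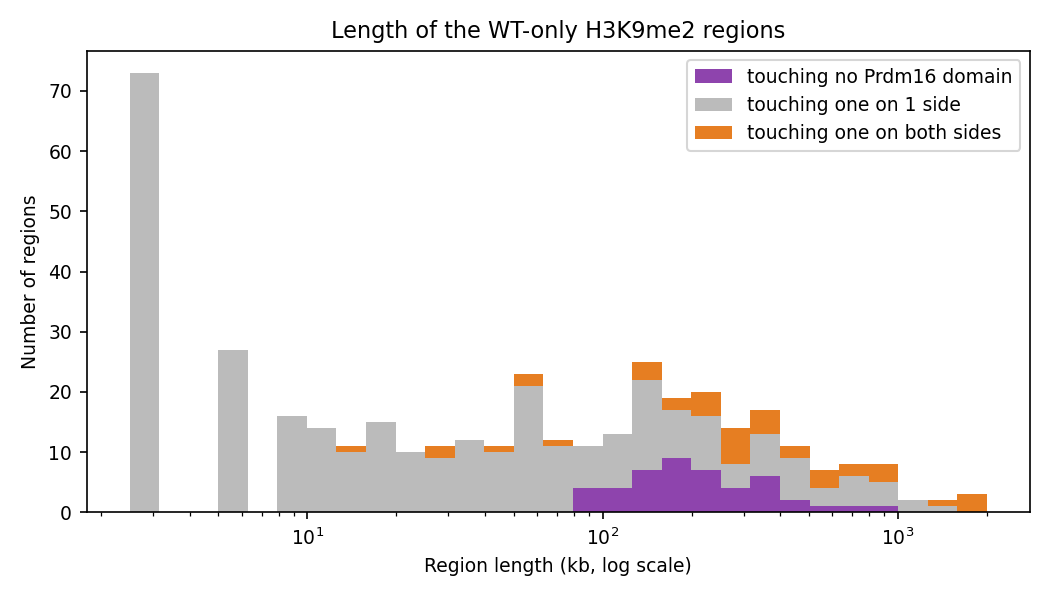
Number of regions by length in kb (log axis), with stacked colours for regions that touch a Prdm16 domain on neither, 1 or both sides. The 73 regions of 3 kb form the leftmost bar, and regions that touch Prdm16 domains on both sides had a median length of 298.5 kb, against 18 kb for those touching on 1 side and 181.5 kb for those touching none.

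The longest region, 1761 kb at chr3:11715001-13476000 (mm10), lay wholly in the domains of WT replicates 1 and 3 and in none of WT replicate 2. It filled the space between 2 Prdm16 domains and held no protein-coding gene apart from 4.35 kb at an end of Ralyl, which encodes an RNA-binding protein. The next, 1716 kb at chr14:110751001-112467000, held Slitrk5 and the start of Slitrk6. A region of 1644 kb at chr15:69738001-71382000 held no protein-coding gene, and its first part was covered in WT replicate 2 as well, over 10.8% of its length.

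The fourth region, 1410 kb at chr8:65142001-66552000, held Marchf1, Tma16 and Tktl2, a transketolase-like gene. The fifth, 1314 kb at chr10:32292001-33606000, held the whole of Trdn, which encodes the muscle protein triadin, 83.4% of Clvs2 and 50.1% of Nkain2. Then came 1044 kb at chr10:73575001-74619000 within Pcdh15, a cadherin of sensory hair cells, 1029 kb at chr2:42690001-43719000 with Kynu, an enzyme of tryptophan breakdown, 999 kb at chr5:40041001-41040000, 984 kb at chr3:73143001-74127000 with Bche, butyrylcholinesterase, and 969 kb at chr11:92079001-93048000. The regions on chromosomes 5 and 11 held no protein-coding gene. All 10 lay wholly in the domains of WT replicates 1 and 3, and 8 of them had no cover in WT replicate 2.

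**Figure D2:**
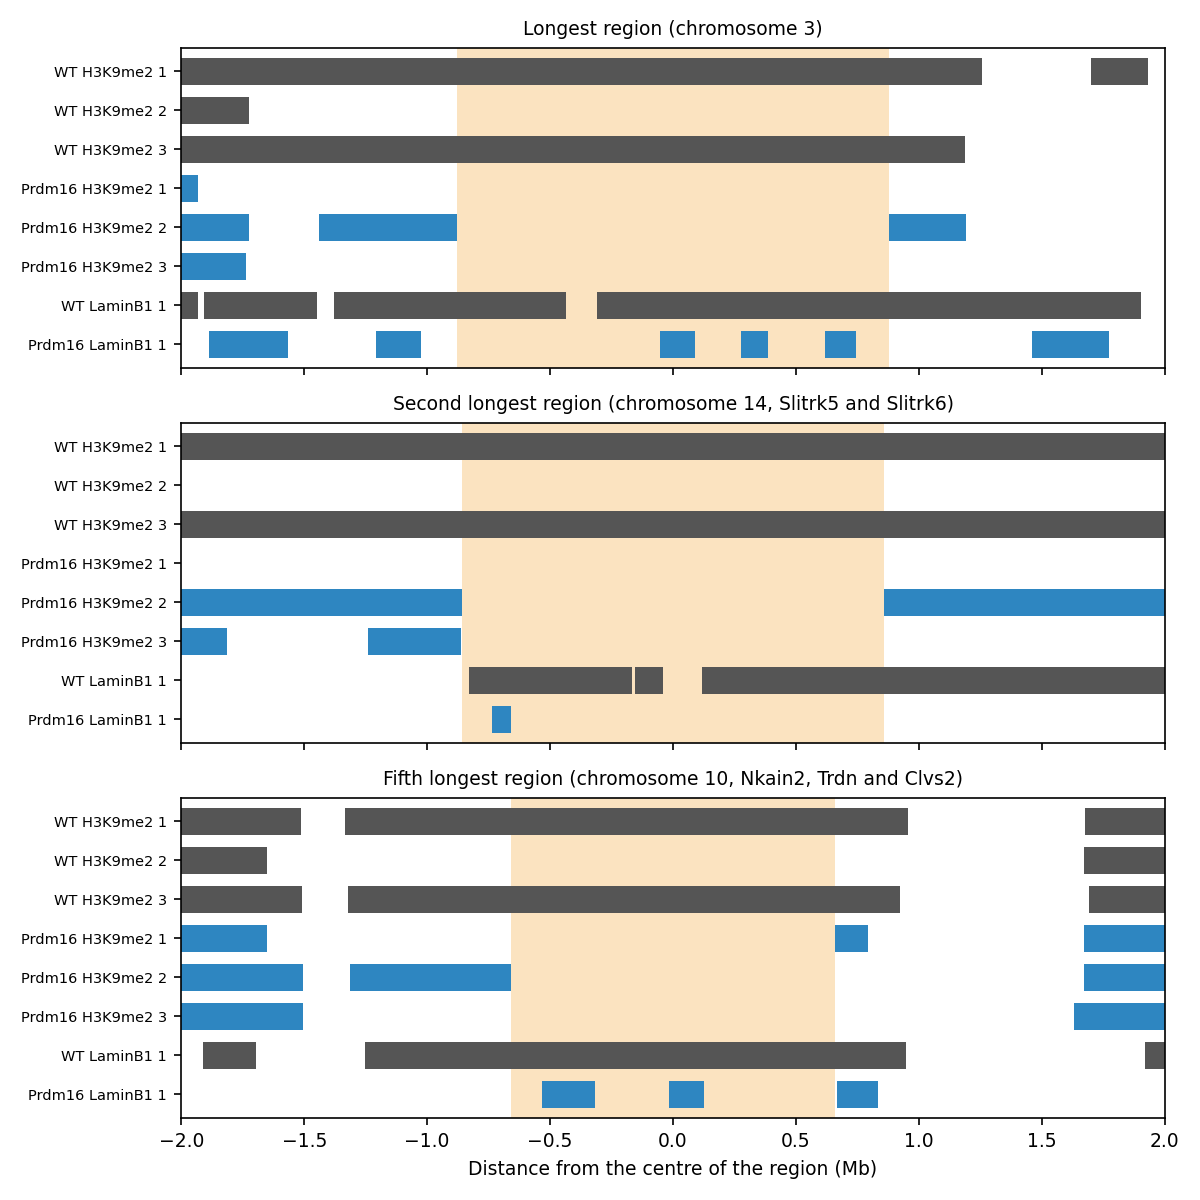
Deposited domains (bars) of the 6 H3K9me2 and 2 LaminB1 libraries around the regions of 1761, 1716 and 1314 kb (shaded), with distance from the centre of the region in Mb on the x axis and 1 row per library. WT replicates 1 and 3 cover each shaded region whole, no Prdm16 H3K9me2 domain enters one, and WT LaminB1 domains fill 92.7%, 88.3% and 100% of them.

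Stretches that all 3 WT libraries covered were short. They numbered 70, in 69 of the regions, with a median of 18 kb. The longest, 384 kb at chr9:18393001-18777000, lay 753 kb from any Prdm16 domain and held Muc16, a membrane mucin, the zinc finger gene Zfp558, Mbd3l2 and Ubtfl1. Next came 291 kb at chr7:120129001-120420000, 705 kb from any Prdm16 domain, with the lipid transporter genes Abca14 and Abca15, the egg coat gene Zp2 and Crym. A stretch of 291 kb at chr8:38712001-39003000 and one of 261 kb at chr9:12921001-13182000 held no protein-coding gene, and one of 261 kb at chr2:106173001-106434000 held 236.7 kb of Dcdc5.

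The regions were spread over all 19 autosomes but not evenly. Chromosome 3 held the most, 6.53 Mb or 4.09% of its length, followed in Mb by chromosome 1 with 6.4 Mb (3.28%), chromosome 5 with 5.35 Mb (3.55%) and chromosome 9 with 4.89 Mb (3.94%). Chromosome 13 held the least, 0.453 Mb or 0.377%.

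How far the labelled genotypes set these regions apart was described by applying the same rule to every way of taking 3 of the 6 libraries against the other 3, which gives 20 directed groupings, 18 of them mixing genotypes. By length the WT group was number 4 of 20. Of the mixed groups, 3 gave more than its 60.2 Mb and 15 gave less, with a median of 17.0 Mb and a lowest value of 5.41 Mb. The 3 larger ones all joined WT replicates 1 and 3 to a Prdm16 library: 157.3 Mb with Prdm16 replicate 2, 69.6 Mb with replicate 1 and 63.7 Mb with replicate 3. All of the top 4 groupings thus contained the same pair of WT libraries, whose pair-only bins, 52.2 Mb, were in each. The groupings share libraries and bins, so they are values side by side and no test.

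The length covered in all 3 libraries of a group set the WT group less far apart. It was 3.846 Mb for WT, number 8 of 20, with 6 mixed groups above it and a mixed median of 2.502 Mb. The Prdm16 group, at 6.31 Mb, had more than the WT group by this count. When each library was reduced to the same covered length by keeping its highest-scoring domains, the WT group gave 36.9 Mb and was number 9, with 8 mixed groups above it, and the Prdm16 group gave 36.5 Mb. Under each of these 3 counts, at least 3 mixed groupings had more length than the WT group.

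**Figure D3:**
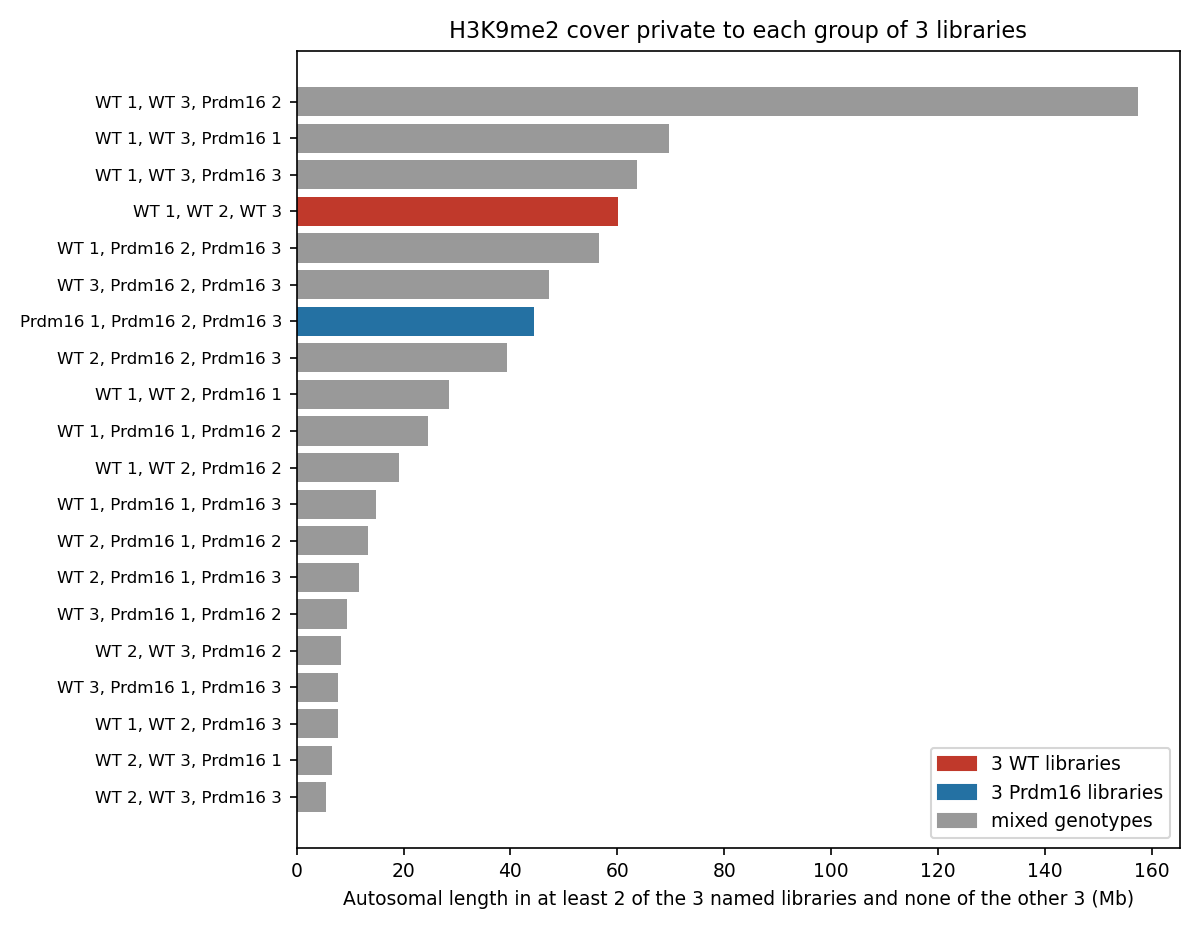
Autosomal length in Mb covered in at least 2 libraries of a group of 3 and in none of the other 3, for all 20 groupings of the 6 H3K9me2 libraries. The WT group, at 60.2 Mb, comes after 3 mixed groups that each hold WT replicates 1 and 3, and the Prdm16 group, at 44.5 Mb, is number 7.

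LaminB1 domains, which the rule did not use, covered most of the regions in WT. There was 1 LaminB1 library per genotype, so no value in this paragraph has a replicate check or a test. WT LaminB1 domains covered 84.3% of the regions' length, against 26.4% of the autosomes, 54.2% of the stretches in all 6 H3K9me2 libraries and 1.17% of the Prdm16-only regions. Prdm16 LaminB1 domains covered 35.4% of the regions, against 12.5% of the autosomes and 20.7% of the stretches in all 6. Of the regions' length, 49.3% lay in WT LaminB1 alone, 35.0% in both, 0.424% in Prdm16 alone and 15.3% in neither. Cover was lower in the Prdm16 library over the autosomes as a whole too, at 305.2 Mb against 646.5 Mb in the WT library.

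The WT LaminB1 library was therefore also reduced by domain score to the covered length of the Prdm16 library. The regions then had 46.7% in WT LaminB1 against 35.4% in Prdm16, while the stretches in all 6 H3K9me2 libraries had 14.4% against 20.7%. The same direction held for bins in WT replicates 1 and 3 only (50.2% against 36.2%). It turned for bins in all 3 WT libraries (35.4% against 44.7%), in replicates 1 and 2 only (14.8% against 20.1%) and in replicates 2 and 3 only (2.88% against 5.76%). With 1 library each, genotype and library cannot be told apart here.

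Among single regions, 222 had at least 50% of their length in WT LaminB1, 165 lay wholly within it and 158 had none. In the Prdm16 library 95 had at least 50% and 243 had none. Long regions were covered more: those over 100 kb had 87.1% in WT and 35.9% in Prdm16 LaminB1, and those up to 100 kb had 57.3% and 31.2%. Regions filling a gap between Prdm16 H3K9me2 domains had 89.9% in WT LaminB1, those touching 1 such domain 82.6% and those touching none 79.8%. Among the 10 longest, WT LaminB1 cover ran from 73.2% to 100%, and Prdm16 cover from 4.66% in the Slitrk5 region to 75.4% in the region on chromosome 15.

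A high WT LaminB1 share also went with the pair of WT replicates 1 and 3 in mixed groupings. The 3 groupings of this pair with a Prdm16 library gave regions that were 66.0%, 82.7% and 77.1% in WT LaminB1. The bins in all 3 WT libraries had 78.3% in WT LaminB1, and bins in 1 WT library and no Prdm16 library had 70.9%. Within the regions the share differed by library pair, at 87.6% in bins of replicates 1 and 3 only, 53.7% in those of replicates 1 and 2 only and 18.2% in those of replicates 2 and 3 only.

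**Figure D4:**
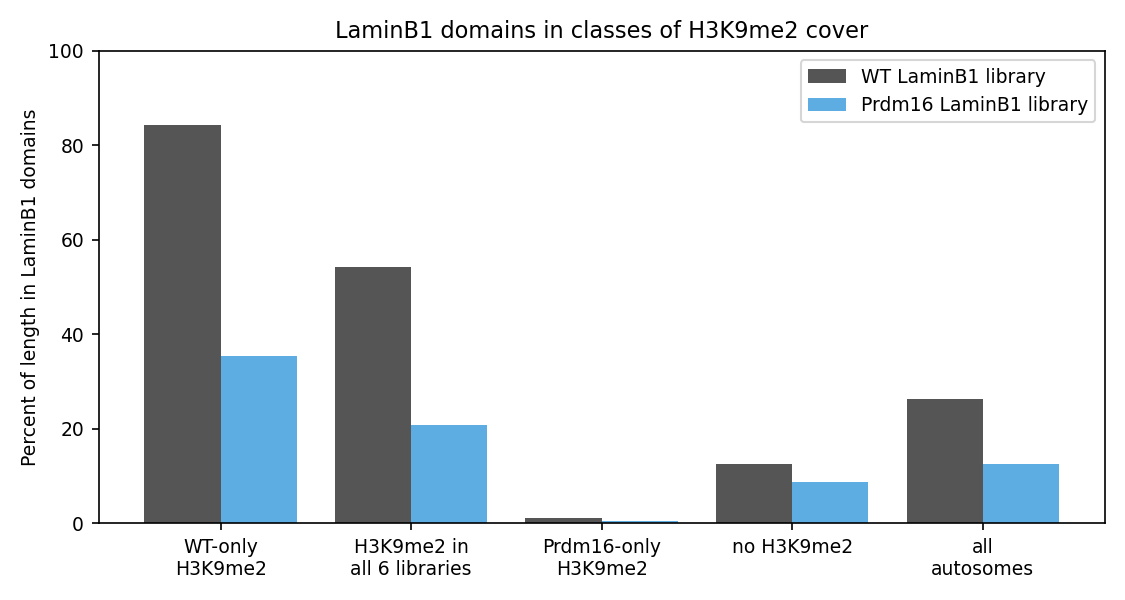
Percent of the autosomal length of each H3K9me2 class that lay in LaminB1 domains, with 1 bar for the WT library and 1 for the Prdm16 library. WT-only regions had 84.3% in WT and 35.4% in Prdm16 LaminB1, and Prdm16-only regions had 1.17% and 0.488%.

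Next to all autosomes the regions were poor in genes, and the genes they held were short with few CG at their starts. In all, 204 protein-coding genes of RefSeq had at least 50% of their body inside, 0.987% of the 20665 on autosomes, and these lay in 94 of the 395 regions. The regions held 2.64 starts of protein-coding genes per Mb, counted over the 14811 genes with a known start. The autosomes as a whole held 6.04, so the regions had fewer. They had more than the stretches in all 6 H3K9me2 libraries, with 1.39, and the Prdm16-only regions, with 1.08. The bins in no H3K9me2 domain held 9.08. The median gene was 6.56 kb long, against 17.5 kb over all autosomal genes. It was 22.95 kb in the stretches in all 6 libraries and 37.6 kb in the Prdm16-only regions. The median promoter held 2 CG dinucleotides, against 14 over all autosomes and 3 in the stretches in all 6 libraries, and 76.1% held no more than 5.

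A pair of short motifs that share no match with each other was searched on both strands of these 300-base promoters. The E-box CAGCTG, the kind bound by MyoD family factors, was in 12.6% of the promoters in the regions and in 14.9% of all autosomal protein-coding promoters. TATAAA, a form of the TATA box, was in 24.5% and 13.9%. In the stretches in all 6 H3K9me2 libraries it was in 18.3%, and in the Prdm16-only regions in 14.6%. A match is only a match of letters, and the 5 promoters printed above held neither.

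Gene families that lie in clusters made up many of the 204 genes. Olfactory receptors, which sense odours in the nose, gave 44 genes, 3.99% of the 1104 in RefSeq, in 13 regions on 8 chromosomes. Beta-defensins, antimicrobial peptides, gave 7 of 42 (16.7%), serpins, which inhibit proteases, 4 of 62 (6.45%), and vomeronasal receptors, which sense pheromones, 5 of 354 (1.41%). Zinc finger genes gave 2 of 415 (0.482%), Zfp558 and Zfp563. No clustered protocadherin, keratin, C-type lectin, potassium channel, taste receptor or Hox gene had 50% of its body inside. Over all autosomal protein-coding genes the share was 0.987%, and no test was made of these counts.

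Single clusters show the arrangement, and were chosen here after their values were seen. A region of 165 kb at chr19:13758001-13923000 held 9 olfactory receptors and lay in LaminB1 domains over 100% of its length in WT and 87.9% in Prdm16. One of 204 kb at chr8:18957001-19161000 held 6 beta-defensins with Spag11a and Spag11b, with 86.8% and 71.1%. By contrast, a region of 168 kb at chr13:21534001-21702000 with 7 olfactory receptors lay in no LaminB1 domain of either library, and was covered whole in WT replicates 1 and 2 and over 98.2% in replicate 3. A region of 237 kb at chr6:24489001-24726000, again in no LaminB1 domain, held Ndufa5, Asb15, Lmod2 and Wasl.

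The listed genes of muscle, fat and FAP identity did not lie in the regions, though Trdn and Lmod2, muscle genes on none of these lists, lay wholly inside. No gene had 50% of its body inside among 23 myogenic regulators, 43 genes of the sarcomere and muscle calcium handling, 20 of FAP identity, 24 of adipogenesis, 32 of collagen and matrix, 32 of TGF-beta, BMP and WNT signalling or 33 of H3K9 methylation and heterochromatin. The lists of lamina proteins (15), inflammation and interferon (26), the cell cycle (16) and voltage-gated channels (33) had none either. Of all 20665 autosomal protein-coding genes, 204 had at least 50% of their body inside, so 0 in lists this small is near that share. Of the collagen and matrix genes, Col19a1, a collagen chain, was touched over 37.3% of its body. Neuronal lists had a few members inside. These were Csmd1, Slitrk5 and Slitrk6 of 54 genes of synaptic adhesion and axon guidance, and Pcdh15 of 22 cadherins. No test was made of any list count. Gabra2 lay wholly inside a region.

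Before the RNA results, a point on its libraries is needed. The p-values in the authors' deposited table agreed within 1% with a DESeq2 fit here for 38 of 6237 genes (0.609%) with the libraries grouped as labelled, and for 6237 of 6237 when WT replicate 3 and Prdm16 replicate 2, by their labels, were taken as the Prdm16 pair. Which grouping is right was not tested, so the RNA results keep the labels and are also given with WT replicate 3 and Prdm16 replicate 1 both left out. Totals ran from 5839587 to 10657791 counts. Prdm16 itself had 171, 94 and 59 counts across the WT replicates against 91 and 86 across the Prdm16 replicates, a difference that did not pass edgeR's quasi-likelihood test (log2 fold change 0.13, SE 0.47, adjusted p = 0.9996). A gene total does not check the deletion where reads lie outside the deleted part. The 7 FAP markers summed to 1773 to 3529 CPM (counts scaled to the size of each library) across WT and 2596 to 3323 across Prdm16, while macrophage, endothelial and Schwann cell markers each summed to at most 8.29. The 6 markers of pericytes and smooth muscle summed to 173.9, 266.5 and 468.1 CPM across WT against 204.2 and 238.9 across Prdm16. The 6 markers of myoblasts and muscle summed to 64.3, 67.2 and 215 CPM across WT against 143 and 181 across Prdm16. The 4 tenocyte markers summed to 44.6 to 48.3 CPM across WT and 82.6 to 147.4 across Prdm16. Most of these sums was Thbs4, at 36.2, 34.7 and 31.1 CPM across WT against 67.1 and 121 across Prdm16. Mkx was also higher in the Prdm16 libraries and Tnmd overlapped. Scx was lower, at 2.72, 1.42 and 1.07 CPM across WT against 0.947 and 0.685 across Prdm16.

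RNA from the genes of the regions was scarce in both genotypes. Of the 204 genes, 200 were in the count table, 115 had no count in any library and 85 (42.5%) had at least 1. The share with a count was 56.8% of genes in the stretches in all 6 H3K9me2 libraries, 87.5% of genes in Prdm16-only regions and 82.6% of all autosomal protein-coding genes. Only 19 (9.5%) passed the expression filter of edgeR and could be tested, against 10.6%, 54.7% and 59.5% in those groups. The 200 genes summed to 628.9, 634.9 and 799.6 CPM across the WT replicates against 656.2 and 655 across the Prdm16 pair. The groups overlapped in these sums, with the Prdm16 libraries within the WT range. Zwint, Smc2, Ndufa5 and Wasl had WT means of 242, 120, 120 and 53.1 CPM, so the sums rest mostly on these genes. In bulk RNA, fewer cells of a type and less RNA per cell cannot be told apart, here and below.

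LaminB1 cover differed with RNA among these genes. Of the 115 with no count, 95 (82.6%) had at least 50% of their body in WT LaminB1 domains, and 64 (55.7%) in Prdm16 LaminB1 domains. The numbers were 44 of 66 (66.7%) and 24 (36.4%) for genes with counts that failed the filter. For the tested genes they were 6 of 19 (31.6%) and 1 (5.26%). Median gene length differed too, at 3.93 kb, 25.8 kb and 34.9 kb in the same order. Many of these genes share a region, so they are not separate observations. The part of length and of shared regions was not tested. Of the 44 olfactory receptors 12 had a count, against 473 of 1102 in the whole family (42.9%). Reads of similar gene copies can be assigned with uncertainty, which was not measured here.

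No gene of the regions passed the test between genotypes. By edgeR's quasi-likelihood test with Benjamini-Hochberg adjustment, 0 of 19 tested genes were called, where 0.0% of all 15240 tested genes were called in either direction. At an unadjusted p under 0.05 there was 1, Ndufa5, which was lower, against 2.48% of all tested genes in either direction and 1.37% lower. DESeq2, run with no expression filter, called 0 of 85 genes of the regions and 0.00311% of all genes, with 2 at an unadjusted p under 0.05 against 1.34% of all. Limma-voom called 0 of 19 and 0.0% of all genes, with 1 at an unadjusted p under 0.05 against 2.12%. Of the 19, 10 were higher and 9 lower in the Prdm16 libraries, with a median log2 fold change of 0.08, against 0.0005309 over all genes tested. Leaving out both doubtful libraries leaves 2 WT libraries and 1 Prdm16 library, whose spread is assumed to be that of the WT pair. There 11 of 19 were higher, 0 were called against 0.614% of all tested genes, 2 had an unadjusted p under 0.05 against 6.31%, and the median was 0.09. In the authors' deposited table, 10 of these genes had an adjusted p, and none was called up or down, where 1.97% of all genes with an adjusted p were called up and 5.58% down. Those calls use the authors' own cutoffs, and their p-values matched the other grouping of libraries, as given above. They are therefore not calls between the groups as labelled.

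The Prdm16 libraries did not overlap the WT libraries for 5 of the 19 genes (26.3%), against 17.8% of all tested genes. Slitrk6, Trdn, Rnf32 and Zfp558 lay above every WT library (8.83% of all tested genes did), and Ndufa5 lay below every one (8.96%). Ndufa5, a subunit of complex I of the respiratory chain, had 127, 124 and 108 CPM across the WT replicates against 94.3 and 75.7 CPM across the Prdm16 pair. The log2 fold change of -0.49 (SE 0.20) had an edgeR adjusted p of 0.9996. With the 2 WT libraries and 1 Prdm16 library that are not in doubt, its log2 fold change was -0.75.

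Slitrk6 had 2.69, 0.717 and 4.20 CPM across WT against 5.02 and 9.06 CPM across Prdm16. Its log2 fold change, 1.43 (SE 0.66), had an edgeR adjusted p of 0.9996 and was 2.33 with the 2 WT libraries and 1 Prdm16 library that are not in doubt. Its neighbour Slitrk5, whose start carries many CG, had 4, 7, 1, 2 and 0 counts in the same order and was not tested. Of the other receptor and adhesion genes, Gabra2 had 2, 0 and 1 counts in WT and none in Prdm16, Csmd1 had 12, 4 and 2 against 3 and 10, and Pcdh15 had 13, 6 and 6 against 10 and 2. These are too few counts to show a difference between genotypes.

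Both muscle genes among those tested were at low levels. Trdn had 0.866, 1.72 and 1.68 CPM across WT against 2.69 and 2.31 across Prdm16, and its log2 fold change was 0.82 (SE 0.56). Lmod2, which encodes leiomodin, an actin-binding protein of the thin filament, had 0.577, 0.573 and 1.59 CPM across WT against 2.45 and 1.07 across Prdm16, and the groups overlapped. Neither passed edgeR's test (adjusted p = 0.9996). The markers of myoblasts and muscle, given above, had their lowest sums in WT replicates 1 and 2 and their highest in WT replicate 3. Their part in these values was not tested.

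Apart from Ndufa5, the genes with most RNA had overlapping groups. Zwint, a kinetochore protein, had 214, 226 and 287 CPM across WT against 269 and 306 across Prdm16. Smc2, a core subunit of condensin, had 98.2, 98.2 and 164 CPM across WT against 101 and 92 across Prdm16. Wasl, the actin regulator N-WASP, had 77.4, 39.7 and 42.2 CPM across WT against 36.7 and 43.0 across Prdm16. Dsel, a protein of dermatan sulphate synthesis, had 38.6, 41.3 and 39.6 CPM across WT against 37.4 and 41.7 across Prdm16. Tma16 had 17.1, 21.5 and 31.4 CPM across WT against 21.9 and 20.8 across Prdm16. Of these genes, Zwint, Wasl, Dsel and Tma16 had none of their body in a LaminB1 domain of either library, and neither had Ndufa5 or Slitrk6.

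Of the other tested genes, Klhl32 (log2 fold change -1.12), Marchf1 (-0.44), Zfp563 (-0.34) and Wasf3 (-0.33) were lower in Prdm16. Mthfs (0.08), Spopl (0.18), Arpp21 (0.24), Zfp558 (0.26), Rnf32 (0.67) and Gnai1 (1.08) were higher. None of these genes passed edgeR's test (adjusted p = 0.9996 for each). With 1 library left out, Klhl32 ran from -1.83 to -0.442 and Rnf32 from 0.157 to 1.06. Among untested genes of the longest regions and stretches, Kynu and Zp2 had 0 counts in every library and Bche had 4, 5 and 10 in WT and 9 and 0 in Prdm16. Muc16, in the longest stretch that all 3 WT libraries covered, had 1, 1 and 4 counts in WT and 0 and 3 in Prdm16. For the 19 genes that could be tested, no difference in RNA between genotypes was detectable with these few libraries as labelled at this depth.

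**Figure D5:**
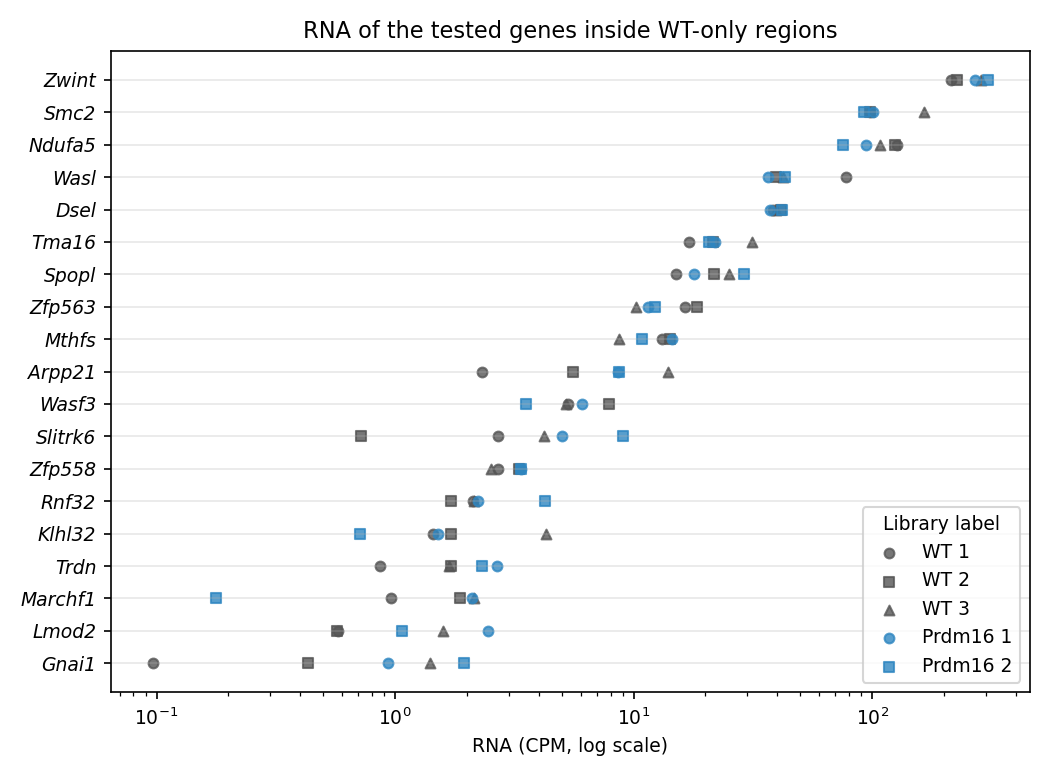
RNA level (CPM, log axis) in each library for the 19 tested genes of the regions, with WT and Prdm16 libraries as separate points. Zwint, Ndufa5 and Smc2 lie highest, and the Prdm16 points lie apart from the WT points for 5 genes.

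Genes were also counted by other rules. With genes whose start lay in a region, 19 were tested, 8 were higher, 0 were called by edgeR (0.0% of all tested genes, as above) and the median log2 fold change was -0.01. With any overlap, 69 were tested, 39 were higher, 0 were called and the median was 0.04. The Prdm16 libraries did not overlap the WT libraries for 15.8% of genes by start and 15.9% by any overlap, under the 17.8% of all tested genes, where the share by gene body was 26.3%. Of the genes with any overlap, 30 had an adjusted p in the authors' deposited table, which called 1 up, Havcr2, and 0 down. Of all its genes with an adjusted p, 1.97% were called up and 5.58% down. Havcr2 encodes the immune receptor TIM-3. These deposited calls, too, do not compare the groups as labelled.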

How the data were processed

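The domain lists, count table and comparison table were used as deposited. Each H3K9me2 or LaminB1 domain carried a score made by the authors; neither its making nor the domain caller is given in the sources used here. Domain ends fell on a grid of 3 kb (H3K9me2) or 4 kb (LaminB1), so 1 kb bins held them. The count of reads per gene was deposited unnormalized for 5 libraries. The authors' table gave a mean normalized signal, a log2 fold change with its standard error, and a p-value per gene. Per the submitters' processing notes, the builds were mm10, dm6 and GRCm38 and the tools included STAR 2.7, Bowtie 1.2.2, DESeq2 1.20 and featureCounts, with no role given. Per the labels' protocols, RNA was polyadenylated and prepared by SMART-seq2. For the domain libraries no read depth is known.

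Domains were intersected in Python 3.11.15. Genes and promoters came from the RefSeq tables of GRCm38.p6, the assembly of mm10; 200 of 204 genes matched the count table. Counts were fitted with edgeR 4.0.16 (R 4.3.3): its default expression filter (15240 genes), TMM scaling and a two-sided robust quasi-likelihood test of genotype, adjusted by Benjamini-Hochberg and called below 0.05. The fit was tested on simulated data. DESeq2 1.42.0 and limma-voom 3.58.1 were alternatives. The labels do not pair replicate numbers. Named were the 10 longest regions, the 5 longest stretches covered in all 3 WT libraries, up to 4 genes of each, listed genes with at least 50% of their body inside, and up to 12 genes per direction by p whose mean reached 1 CPM in either genotype. The regions, members and lists were chosen with earlier results of these data known. Some results on listed genes are not reported here.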

Additional observations from a re-analysis of the deposited data

How the results depend on the processing

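The regions depended on the rule and on single libraries. Of 60177 bins in 395 regions, 3846 bins in 70 regions were left when all 3 WT libraries were required, and 134394 in 843 when any 1 sufficed. At equal covered length 36861 bins in 103 regions were left, 8 mixed groupings exceeded the WT group in place of 3, and the Prdm16 LaminB1 share was 22.1%. Dropping bins within 30 kb of a Prdm16 domain left 216 regions. With 1 WT library left out, the rule asked for cover in both that remained, so it was stricter. It gave 4506 bins in 90 regions without WT replicate 1 and 7323 in 159 without WT replicate 3. Without WT replicate 2 it gave 56040 bins in 286 regions. Leaving out a Prdm16 library could only add bins. The count was 92325 without Prdm16 replicate 1, 169650 in 642 regions without replicate 2 and 69825 without replicate 3. With 1 library of either genotype left out, the Prdm16 LaminB1 share ran from 20.4% (without Prdm16 replicate 2) to 41.3%. The WT share ran from 66.6% to 87.0%. The WT share was 46.7% with WT LaminB1 domains reduced to the Prdm16 length. The settings on LaminB1 and on equal length among groupings were chosen after seeing the data. The cause of these changes was not tested.

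No gene of the regions was called in any RNA setting. Over all genes tested, 93 were called without both doubtful libraries, 25 with no filter, 4 without Prdm16 replicate 1, 1 with DESeq2, 1 with the block and 0 in the other settings. With the replicate number as a block, 0 were called and the median log2 fold change was 0.157. The numbers are not paired by the labels, and same-numbered deviations correlated at 0.209 and -0.202. With only a pair of Prdm16 libraries, their deviations mirror each other, and WT replicate 2 correlated at 0.202 with Prdm16 replicate 1. These correlations therefore cannot decide on pairing. The median was -0.23 with no filter and -0.24 with DESeq2. Some log2 fold changes changed sign when 1 library was left out: Tma16 ran from -0.325 to 0.154, Mthfs from -0.173 to 0.283, Dsel from -0.0809 to 0.0408, Spopl from -0.188 to 0.461, Arpp21 from -0.202 to 1.16, Wasf3 from -0.808 to 0.00151 and Marchf1 from -3.14 to 0.354. The block turned Tma16 (0.157) and Mthfs (-0.12). Without both doubtful libraries Tma16 (0.085), Mthfs (-0.359) and Dsel (0.0412) turned. Domain lists carry no read depth, so a missing domain does not show a missing mark.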

Other observations

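Of 1136 autosomal miRNA genes in the RefSeq table, 9 lay in the regions: Mir195b, Mir3471-1, Mir3471-2, Mir6402, Mir653, Mir489, Mir6238, Mir184 and Mir128-2. Their RNA was not analysed here. A region of 84 kb at chr2:148764001-148848000 held 7 genes of the cystatin family and was covered in WT replicates 1 and 2.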
